A study of Bos taurus with 16 samples.

Results

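The genes of the mitochondrial genome were described in RNA from the prefrontal cortex (PFC) of Lidia bulls, a cattle breed kept for its aggressive behavior. Every gene that the deposited files place on the chromosome MT was taken, on either strand, which gave 37 of 27607 genes. Bulls aged 3 years formed the young group (8 animals) and bulls aged 4 years the adult group (8 animals), all non-castrated males that had faced a contest in the bullring before slaughter, and they are numbered here within each group in the order of the deposited samples. The files of adult bulls 6 and 8 were identical and listed every gene at 0, so that 14 bulls with values remained, 8 young and 6 adult. Both age groups were drawn from the Santa Coloma-Albaserrada lineage (4 young and 4 adult bulls with values) and the Domecq lineage (4 and 2), and the animals came in batches that followed both, so age and batch cannot be told apart inside either lineage. Values are FPKM, that is, fragment numbers divided by transcript length in kilobases and by the number of mapped fragments of the bull. The half-width of the interval that Cufflinks gave each estimate was between 0.288% and 1.67% of the value for the rRNA genes, ND1, ND2, COX2, ND3 and CYTB, and between 4.13% and 11.6% for ND4L, ND4, ND5 and ND6, and for each of these genes the SD between animals was larger.

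Mitochondria keep a small circular genome of their own, which is copied into long RNAs from each strand and then cut apart, largely at the transfer RNAs that lie between the other genes. Most of the messenger RNAs receive a short poly(A) tail. The messenger RNAs encode core subunits of the respiratory chain and of ATP synthase, while the ribosomal RNAs form part of the mitochondrial ribosome. Neurons depend on this chain for most of their ATP, and mitochondrial RNA is usually abundant in cortex. The libraries were made with a kit that selects polyadenylated RNA and keeps the strand. In tissue RNA, fewer cells of a type and less RNA per cell cannot be told apart. Cell type markers of the cortex were not analysed here, since the files pair no symbols with their identifiers.

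The 37 genes comprised 13 protein-coding genes, 2 rRNA genes and 22 tRNA genes, and the spans of all 37 coincided with those of the mitochondrial genes in RefSeq, from which the protein-coding names were taken. Of the protein-coding genes, 7 encode subunits of complex I (NADH dehydrogenase), 1 a subunit of complex III, 3 subunits of complex IV (cytochrome c oxidase) and 2 subunits of complex V (ATP synthase). On the plus strand lay 28 genes and on the minus strand 9, and ND6 was the only protein-coding gene among the latter. Each gene had a single transcript with a single exon. Among the rRNA and protein-coding genes, neighbours shared bases in several places, namely 40 between ATP8 and ATP6, 1 between ATP6 and COX3, 7 between ND4L and ND4, and 17 between ND5 and ND6, which lie on opposite strands. Reads over shared bases could be divided between such genes, and their values are uncertain to that extent.

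All 22 tRNA genes, which are from 60 to 75 bases long, were listed at 0 FPKM in every bull, so the files hold no level for them. Among the other 15 genes, 10 were above 0 in all 14 bulls, namely both rRNA genes, ND1, ND2, COX2, ND3, ND4L, ND4, ND5 and ND6. Genes that every cell needs were among those at 0. COX1 (ENSBTAG00000043561, MT of ARS-UCD1.2 from 5687 to 7231), the catalytic subunit of cytochrome c oxidase, was listed at 0 in 13 bulls and at 17079 FPKM in adult bull 4. The adjoining genes ATP8 (ENSBTAG00000043564, from 8129 to 8329), ATP6 (ENSBTAG00000043584, from 8290 to 8970) and COX3 (ENSBTAG00000043560, from 8970 to 9750) followed the same pattern. In adult bull 4 they stood at 64727, 25614 and 19025 FPKM. CYTB (ENSBTAG00000043550, from 14514 to 15653), the cytochrome b subunit of complex III, was listed at 0 in young bull 5 alone, while the other 13 bulls had from 3360 to 13748 FPKM as deposited (median 5725). COX2, which lies between COX1 and ATP8, had a value in every bull, as the map of listed levels shows. A 0 in such a file can be a failed estimate, and no change of these genes with age can be read from it.

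**Figure D1:**
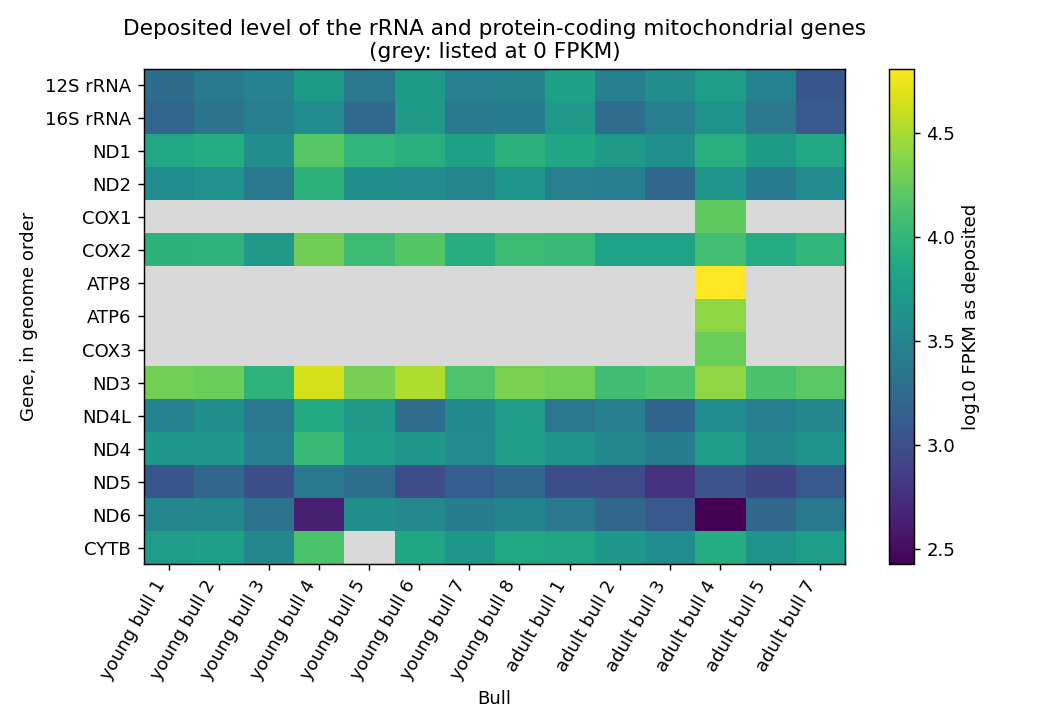
Deposited level (log10 FPKM, colour) of the 15 rRNA and protein-coding genes in genome order (rows) in the 14 bulls with values (columns); grey cells are listed at 0. COX1, ATP8, ATP6 and COX3 have a value in adult bull 4 only, and CYTB is missing in young bull 5.

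Depth moved with these gaps. Adult bull 4, the only animal in which the 4 genes had a value, had the least transcript coverage, 0.263 gigabases (coverage multiplied by transcript length) against 1.09 to 2.46 in the other 13 bulls. In those 13 bulls the transcript with the most coverage was in every case mitochondrial and held between 25.6 and 63.8 megabases. The highest of these values, for ND1, was in young bull 5, the animal in which CYTB was listed at 0. COX1 led in adult bull 4 with 10.998 megabases. Outside the mitochondrial genome, 10 genes were above 0 in adult bull 4 only, and none of those exceeded 6.10 FPKM. The part of depth in the gaps was not tested.

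The gaps weighed on the mitochondrial share of the total FPKM in every bull but adult bull 4. Over all 37 genes, where a gene listed at 0 adds nothing, the share had a median of 28.5% in the young bulls and 24.3% in the adult bulls. It was highest in adult bull 4 (42.3%), the only animal in which COX1, ATP8, ATP6 and COX3 counted. The shares of the other 13 bulls, and with them both medians, lack these 4 genes. As a share of coverage multiplied by length, in which a transcript counts by its length, the medians were 14.3% and 12.6%, and young bull 6 (24.2%) and adult bull 1 (23.3%) lay above adult bull 4 (21.4%). In that animal 61.1% of the mitochondrial FPKM came from COX1, ATP8, ATP6 and COX3. To set all bulls on 1 base, the share was also taken over the 10 genes with a value in every bull, as a percentage of the FPKM of these and the nuclear genes, with the other mitochondrial genes left out of the total as well. By this measure adult bull 4 had 20.4%, the lowest of the 14, and its 10 genes held 14.8% of its total FPKM. On the same base the young bulls ranged from 20.6% (bull 3) to 36.5% (bull 6), with a median of 27.5%, and the adult bulls from 20.4% to 34.2% (bull 1), with a median of 22.2%. Adult bull 1 was then set aside, a choice made after its value was seen, while the highest young bull was kept. The other 5 adult bulls had 20.4% to 22.7%, and 7 of the 8 young bulls lay above all of them, with young bull 3 the exception. No test was made of this share.

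**Figure D2:**
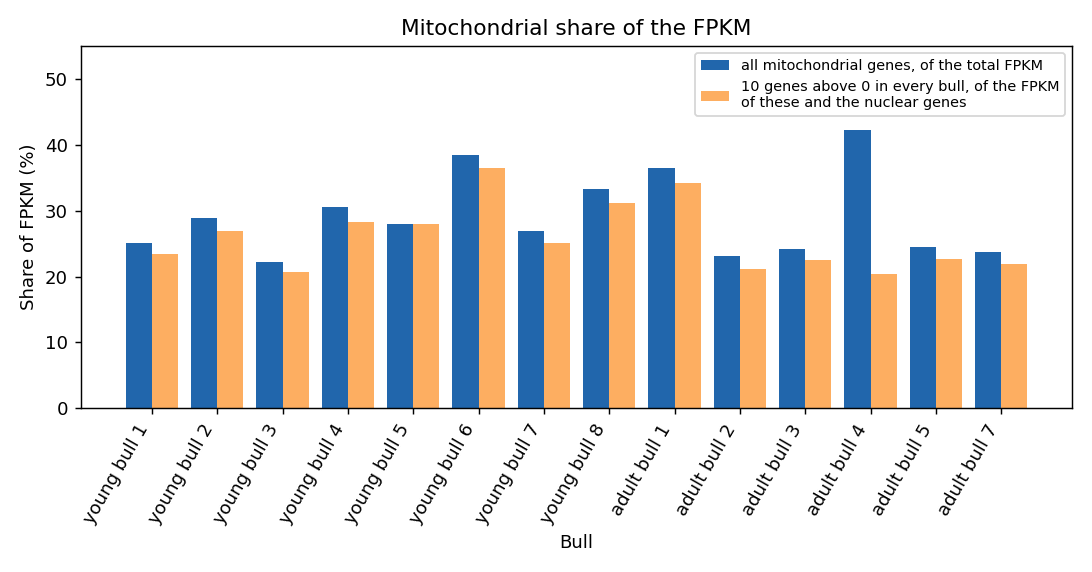
Share of FPKM (%, bars from 0) in each of the 14 bulls. Blue bars give all mitochondrial genes as a percentage of the total FPKM, and orange bars the 10 genes above 0 in every bull as a percentage of the FPKM of these and the nuclear genes. Adult bull 4 is the highest for all genes (42.3%) and the lowest for the 10 genes (20.4%).

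For the levels that follow, each bull was divided by 1 factor. That factor was the median, over the genes above 0 in every bull, of the ratio of the bull's value to the geometric mean of the bulls. Values per gene are rescaled FPKM, which are per length. Whether poly(A) selection captured rRNA, ND6 and the other messenger RNAs alike was not tested, so the order of genes is one of listed values. Among the genes of complex I, ND3 (ENSBTAG00000043568, from 9823 to 10168) had the highest level. COX1, ATP8, ATP6 and COX3 are left out of the order given here, since they had a value in adult bull 4 alone, where ATP8 (37671) was above ND3 (15031), and ATP6 (14908), COX3 (11072) and COX1 (9940) were above COX2 (7209). The level of ND3 ranged from 10571 (bull 3) to 52468 (bull 6) in the young bulls, with a median of 18444, and from 12172 (bull 2) to 32107 (bull 1) in the adult bulls, with a median of 14365. The groups overlapped, and the highest animal in each stood well above the rest. COX2 (ENSBTAG00000043556, from 7374 to 8057), the subunit that receives electrons from cytochrome c, came next among the 11 genes with a value in 13 or 14 bulls. It had 5704 to 23909 FPKM in the young bulls (median 9676) and 6509 to 17658 in the adult bulls (median 8263), again with young bull 6 and adult bull 1 at the top. ND3 exceeded COX2 in all 14 bulls, by 0.94 ± 0.15 on the log2 scale (SD, n = 14).

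ND1 (ENSBTAG00000043558, from 3101 to 4056), a membrane subunit of complex I, followed, with 4542 to 13015 FPKM in the young bulls (median 8099) and 4996 to 10757 in the adult bulls (median 5489). Next in order were CYTB, ND4 (ENSBTAG00000043577, from 10529 to 11906) and ND2 (ENSBTAG00000043571, from 4266 to 5307), with medians over all bulls with a value of 5052, 4198 and 3414. From ND3 down to ND2 each gene was above the next in every bull in which both had a value. Below ND2 the order was not fixed. ND2 was above 12S rRNA in 7 of 14 bulls, 12S rRNA above ND4L in 7 of 14, ND4L above ND6 in 11 of 14 and ND6 above 16S rRNA in 6 of 14, so that these neighbours did not differ beyond their spread. ND5 (ENSBTAG00000043563, from 12109 to 13929), another membrane subunit of complex I, had the lowest median of the 11, 1217 over 14 bulls. ND1 exceeded ND5 by between 4.07-fold (young bull 3) and 8.57-fold (young bull 6) on the FPKM scale.

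The messenger RNAs of the plus strand varied together. Across the 14 bulls the SD of the log2 level was 0.45 for ND1 and 0.42 for ND4. Measured against the mean of the other 6 plus-strand messenger RNAs of the same animal, it was 0.07 for ND1 and 0.10 for ND4. For COX2 the SD went from 0.54 to 0.27 and for ND3 from 0.60 to 0.35, while for ND4L, a short membrane subunit of complex I, it stayed at 0.40 and 0.39. Young bull 6 stood at an extreme for several genes. In it COX2 and ND3 were the highest, and ND4L and ND5 the lowest, relative to the other messenger RNAs. Its ND4L (ENSBTAG00000043559, from 10239 to 10535) to ND4 ratio was 0.391, against a median of 0.781 over the 14 bulls. Young bull 6 and adult bull 1 also had the smallest rescaling factors, 0.638 and 0.620, by which their deposited values were divided. As deposited, ND3 was 33449 in young bull 6 and 19909 in adult bull 1, and the highest value, 45366, was in young bull 4, whose factor was the largest. The share over the 10 genes, which no rescaling changes, was highest in young bull 6 and adult bull 1. The part of the rescaling in the high levels of young bull 6 and adult bull 1 was not tested.

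The rRNA genes varied more between bulls than the plus-strand messenger RNAs did. 12S rRNA (ENSBTAG00000043567, from 431 to 1385) is the RNA of the small subunit of the mitochondrial ribosome, and 16S rRNA (ENSBTAG00000043570, from 1453 to 3023) that of the large subunit. The level of 12S rRNA ranged from 1692 (bull 1) to 8301 (bull 6) in the young bulls, with a median of 2927, and from 1006 (bull 7) to 9983 (bull 1) in the adult bulls, with a median of 3211. For 16S rRNA the young bulls had 1444 to 8207 (median 2333) and the adult bulls 1058 to 8231 (median 2470), with the same animals at the ends. Both groups covered nearly the same range. The SD of the log2 level was 0.85 for 12S rRNA and 0.84 for 16S rRNA, and it was 0.78 and 0.74 against the mean of the plus-strand messenger RNAs. The ratio of 16S rRNA to ND1, its neighbour across a single tRNA gene, ranged from 0.171 in adult bull 7 to 0.765 in adult bull 1 (median 0.379). Within the rRNA genes the ratio of 16S to 12S was held more closely, from 0.654 in adult bull 2 to 1.05 in adult bull 7. On the log2 scale it averaged -0.24 ± 0.15 (SD, n = 8) in young bulls and -0.35 ± 0.24 (SD, n = 6) in adults. A two-sided exact permutation test gave p = 0.320, or 0.622 after Benjamini-Hochberg adjustment over the 2 ratios tested. Without adult bull 7 the difference was -0.19, with an exact permutation p of 0.0451, the lowest when each bull was left out in turn, and 0.0901 after adjustment over the 2 ratios. That adjustment does not allow for the choice of this bull by its result.

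ND6 (ENSBTAG00000043546, from 13913 to 14440, minus strand), a complex I subunit and the only messenger RNA copied from the other strand, separated 2 bulls from the rest. As deposited it had 439 FPKM in young bull 4 and 266 in adult bull 4. In the other 12 bulls it ranged from 1244 to 4036. The ratio of ND6 to the adjoining ND5 was 0.179 in young bull 4 and 0.237 in adult bull 4, and between 1.72 and 3.67 in the other 12 (median 2.10). ND6 was thus listed below ND5 in those 2 animals, 1 in each age group, and above it in all others. On the log2 scale the ratio averaged 0.75 ± 1.34 (SD, n = 8) in young bulls and 0.51 ± 1.28 (SD, n = 6) in adults, with p = 0.622 in a two-sided exact permutation test, and the same after adjustment over the 2 ratios. The difference of -0.25 turned to 0.27 when adult bull 4 was left out, and was -0.71 without young bull 4.

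Nuclear genes on opposite strands set the same bulls apart. In 867 pairs of nuclear genes with overlapping spans on opposite strands, in which the stronger gene had a mean over 5 rescaled FPKM, the weaker gene was compared with the stronger. The median log2 ratio, with 0.1 added to each value, was -4.70 in young bull 4 and -4.88 in adult bull 4, and from -3.82 to -3.44 in the other 12 bulls. Both bulls also had the largest total FPKM, 439325 and 489404 against 172575 to 244276 in the others, and the largest rescaling factors, 1.86 and 1.72. Whether the strand was used in the same way for all files was not stated in the sources used here, and its part in the ND6 values was not tested.

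**Figure D3:**
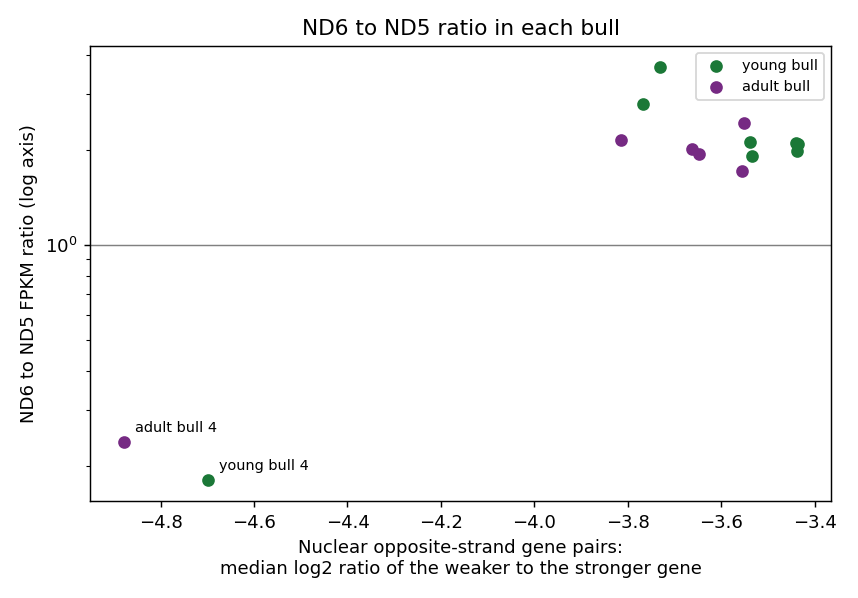
Ratio of ND6 to ND5 FPKM (log axis) against the median log2 ratio of the weaker to the stronger gene in nuclear opposite-strand pairs, 1 point per bull, coloured by age. Young bull 4 (0.179) and adult bull 4 (0.237) lie below a ratio of 1, and the other 12 bulls lie above it.

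To ask whether these genes differed with age, limma was fitted to log2(rescaled FPKM + 0.1) of the 15273 genes above 0 in every bull, with Benjamini-Hochberg adjustment over all of them. Of the 37 mitochondrial genes 10 could enter this fit, and COX1, ATP8, ATP6, COX3, CYTB and the tRNA genes could not. None of the 10 (0 genes) had an adjusted p under 0.05, beside 0% of the whole table. Their adjusted p-values lay between 0.455 and 0.979. At an unadjusted limma p under 0.05 there was 1 mitochondrial gene, ND5, among those lower in the adult bulls, beside 5.59% of all genes tested. Higher in the adult bulls there were 0, beside 3.51%. The exact permutation test on single genes gave 1 of 11 genes under 0.05, again ND5 on the lower side, beside 4.49% of all genes tested that were lower and 4.45% that were higher in the adult bulls by the same test. With FPKM as deposited, 64 genes of the whole table were higher and 509 lower at an unadjusted p under 0.05, against 536 and 854 after rescaling.

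**Figure D4:**
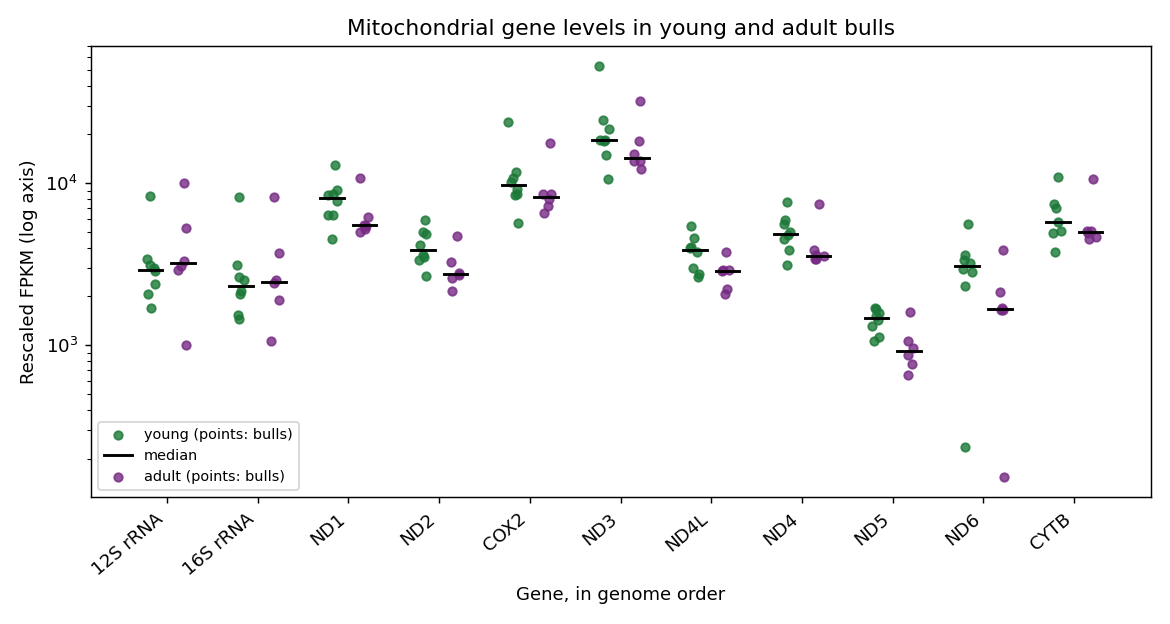
Rescaled FPKM (log axis) of the 11 genes with a value in 13 or 14 bulls, in genome order, with 1 point per bull for the young (green) and adult (purple) groups and a black bar at the group median. The groups overlap for every gene, and ND6 has 1 low bull in each group.

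The log2 fold change was below 0 (lower in the adult bulls) for 8 of the 10 genes, where 49.2% of all genes tested were below 0. The median was -0.31 over the 10 genes and 0.00 over all genes. These genes share their bulls and vary together, so the 8 are not separate observations. The count was also 8 with FPKM as deposited, where 64.6% of all genes were below 0. With quantile normalization, which gives every bull the same distribution of values, 6 of the 10 were below 0, COX2 and ND3 were at 0, and the median was -0.079, while 44.8% of all genes were below 0. The count was 10 without adult bull 1 (48.6% of all genes), and 8 without both young bull 4 and adult bull 4 (50.1%). Within the Domecq bulls alone all 10 were below 0, beside 50.3% of all genes. Within the Santa Coloma-Albaserrada bulls alone it was 6 of 11, CYTB included, beside 51.3%. For none of the genes were the groups free of overlap (0 of 10), whereas such a separation was seen in 0.0982% of all genes with the adult bulls above and in 0.124% with them below.

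ND5 had between 1057 (bull 1) and 1706 (bull 5) rescaled FPKM in the young bulls, with a median of 1475. The adult bulls had between 653 (bull 4) and 1599 (bull 1), with a median of 917. Adult bull 1 lay among the highest young bulls. The means were 1425 ± 244 (SD, n = 8) and 986 ± 333 (SD, n = 6), and the exact permutation test (two-sided, not adjusted) gave p = 0.0186. In limma the log2 fold change of ND5 was -0.57, with a standard error of 0.22 and an adjusted p of 0.455. It was -0.42 (standard error 0.34) within the Santa Coloma-Albaserrada bulls and -0.70 (standard error 0.44) within the Domecq bulls. Its unadjusted limma p was no longer under 0.05 without adult bull 3 (0.0501), without adult bull 4 (0.0724), without both young bull 4 and adult bull 4 (0.0880), within either lineage, or over all genes above 0 in at least 1 bull (0.0590). The same held with quantile normalization, where the log2 fold change was -0.29 with a standard error of 0.25.

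For the other complex I genes of the plus strand no difference passed the tests. Mean ND2 was 4129 ± 1058 FPKM (SD, n = 8) for young bulls and 3037 ± 882 (SD, n = 6) for adults (exact permutation p = 0.0643). Mean ND4L was 3777 ± 957 and 2788 ± 604 (exact permutation p = 0.0509). Their log2 fold changes were -0.45 (standard error 0.30) and -0.43 (standard error 0.28). Those of ND1, ND4 and ND3 were -0.33, -0.29 and -0.29, with standard errors of 0.39, 0.33 and 0.59. Rescaled, ND6 had 236 (bull 4) to 5573 (bull 6) FPKM in the young bulls, with a median of 3077, and 155 (bull 4) to 3878 (bull 1) in the adult bulls, with a median of 1671. ND6 had the fold change farthest from 0, -0.82, but also the largest standard error, 0.73. It was -1.29 without young bull 4 and -0.19 without adult bull 4, and with both left out it was -0.67 (standard error 0.36, adjusted p = 0.7104 with limma).

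COX2 had a log2 fold change of -0.20 (standard error 0.46), which came to 0.14 in the Santa Coloma-Albaserrada bulls alone, where that of ND3 was 0.076. The rRNA genes were the only ones above 0, with 0.19 (standard error 0.48) for 12S rRNA and 0.09 (standard error 0.47) for 16S rRNA, and both were below 0 without adult bull 1. CYTB was compared over the 13 bulls with a value. Its mean was 6410 ± 2326 FPKM (SD) over 7 young bulls and 5797 ± 2345 over 6 adults, with an exact permutation p of 0.607. The limma fit without young bull 5, in which CYTB could be tested, gave a log2 fold change of -0.14, with a standard error of 0.39 and an adjusted p of 0.977.

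**Figure D5:**
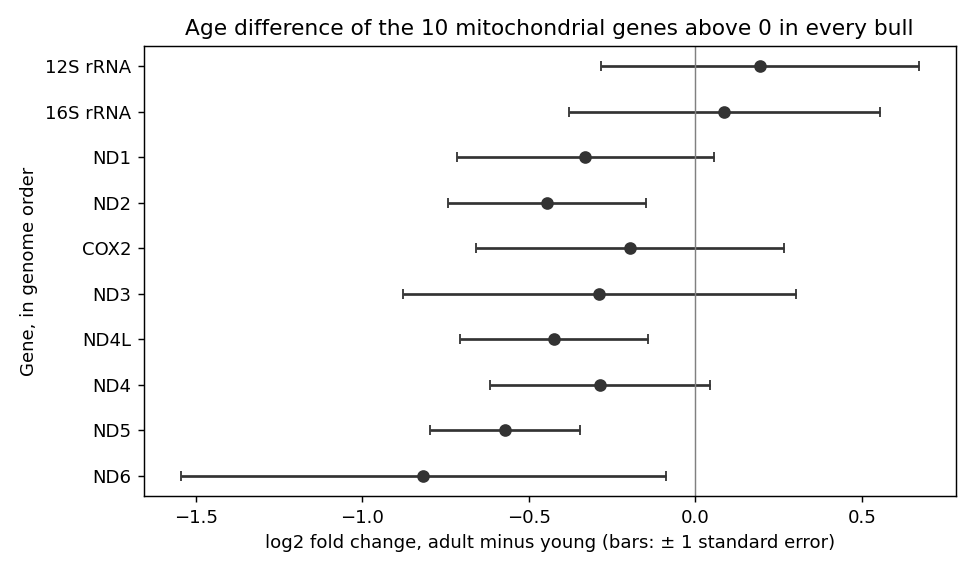
Log2 fold change, adult minus young, of the 10 mitochondrial genes above 0 in every bull (points) with 1 standard error to each side (bars), in genome order. The 8 protein-coding genes lie below 0 and the 2 rRNA genes above it (below it without adult bull 1, while COX2 and ND3 are above it in the Santa Coloma-Albaserrada bulls alone and at 0 with quantile normalization), and the bars of 6 genes reach 0.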

How the data were processed

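RNA of the prefrontal cortex was sequenced from 16 bulls, after poly(A) selection with a stranded kit. Per the study's methods, reads were trimmed and aligned with STAR 2.7.3a to the bovine genome ARS-UCD1.2 with the Ensembl annotation, and transcripts were quantified with Cufflinks 2.2.1. The deposited values are FPKM with a coverage per transcript, computed by the authors for each bull, and other text fields of the same column (an interval) were read with them. The methods give the fr-firststrand option for Cuffdiff, and whether the Cufflinks run of each bull used it is not given in the sources used here. Read counts are not in these files, so no count model was fitted and the depth is given as coverage multiplied by length. It ranged from 0.263 to 2.46 gigabases, with a median of 1.80.

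Every gene on MT was taken, and its transcripts were summed. Names of the protein-coding genes came from RefSeq genes (table of assembly ARS-UCD2.0) with the same span, and those of the rRNA and tRNA genes from order, strand and length. Other identifiers were not paired with symbols. Each bull was rescaled by the median ratio over the 15273 genes above 0 in all 14 bulls. Age groups were compared with limma 3.58.1 in R 4.3.3 (trend, pseudocount 0.1, Benjamini-Hochberg adjustment, threshold 0.05), and single values with exact two-sided permutation tests (numpy 2.4.6) over all 3003 splits of the 14 bulls, with a smallest possible p of 0.000333, or 1716 splits of 13 bulls for CYTB. Fold changes are on the log2(value + pseudocount) scale. On simulated data for adult against young bulls with 15273 genes, 200 were changed. Of these 69% were recovered at a log2 change of 1 and 96.5% at 2, with 3 and 8 unchanged genes called. When none were changed, 0 genes were called. The noise was drawn for each gene on its own, so bulls that stand apart in many genes at once were not simulated. The recovery is over all genes and was not measured for the mitochondrial genes. Groups came from the labels, which name 1 animal per sample, and lineages from the study's supplement, used in alternatives and to compare the age difference between lineages. Adult bulls 6 and 8, at 0 throughout, were left out. The genes to be named were all members with a value. The members and lists were chosen with earlier results of these data known. Alternatives were other pseudocounts, scalings, filters, weights, a lineage term, each lineage alone and leaving out each bull. The alternatives that left out both young bull 4 and adult bull 4, or took the share over the 10 genes above 0 in every bull, were chosen after seeing the data. So was the range of that share without adult bull 1.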

Additional observations from a re-analysis of the deposited data

Results flagged for a closer look

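Among 32 groups of values checked for an animal far from the rest of its age group, 14 had one, where chance would give about 1.6. These values are linked, since genes vary together and share the rescaling factor of each bull, and no explanation was tested.

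Young bull 6 stood above the other 7 young bulls in rescaled FPKM of several genes. It had 8301 for 12S rRNA (others 1692 to 3399), 8207 for 16S rRNA (others 1444 to 3122), 23909 for COX2 (others 5704 to 11643) and 52468 for ND3 (others 10571 to 24450).

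Adult bull 1 stood in the same way above the other 5 adult bulls. It had 8231 for 16S rRNA (others 1058 to 3727), 10757 for ND1 (others 4996 to 6198), 17658 for COX2 (others 6509 to 8613), 32107 for ND3 (others 12172 to 18118), 7411 for ND4 (others 3380 to 3894) and 10563 for CYTB (others 4514 to 5052). Its share over the 10 genes with a value in every bull, of the FPKM of these and the nuclear genes, was 34.2%, against 20.4% to 22.7% in the others.

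In adult bull 4 the ND6 to ND5 ratio was 0.237, far from the 1.72 to 2.43 of the other adult bulls. The median log2 ratio of nuclear opposite-strand pairs was -4.88 in adult bull 4 (other adult bulls -3.82 to -3.55) and -4.70 in young bull 4 (other young bulls -3.77 to -3.44).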

How the results depend on the processing

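None of the mitochondrial genes (0) passed an adjusted p of 0.05 with limma in the reported comparison or in any of the 28 alternatives, of which the lowest adjusted p was 0.0664, for ND5 with array weights. Over the whole table limma called 1.13% of genes with array weights, 0.0611% without both young bull 4 and adult bull 4, 1 or 2 genes in 4 other alternatives and 0 in 22. Of 280 age effects under an alternative, 267 kept their direction, 11 reversed, and 2, those of COX2 and ND3 with quantile normalization, were 0. The reversals with array weights were 12S rRNA (-0.18) and 16S rRNA (-0.23). In the Domecq bulls alone they were 12S rRNA (-0.997), 16S rRNA (-0.91) and the log2 difference of the 16S to 12S ratio (0.090), and in the Santa Coloma-Albaserrada bulls alone COX2 (0.14) and ND3 (0.076). Leaving out each bull in turn gave log2 fold changes from -0.12 to 0.55 for 12S rRNA and from -0.24 to 0.36 for 16S rRNA, with the lowest in both cases without adult bull 1. For 16S rRNA the sign also turned without young bull 1, young bull 5 or adult bull 3. The same procedure gave -0.19 to -0.054 for the 16S to 12S ratio and -0.71 to 0.27 for the ND6 to ND5 ratio. The median mitochondrial share was 28.0% to 28.9% in the young and 24.1% to 24.5% in the adult bulls when 1 bull was left out. As a share of coverage multiplied by length it was 14.3% and 12.6%. ND5 had an unadjusted limma p under 0.05 in 22 of 29 settings, with a log2 fold change from -0.72 to -0.29. With the robust option of limma 2 mitochondrial genes were lower in the adult bulls at that p, beside 842 of all 15273 genes tested. Without young bull 4 there were also 2, beside 797 of 15296. The causes of the changes were not tested. Read numbers were not used, so that counting error is known only through the interval Cufflinks gave. No paired analysis was possible because the numbers in the labels name single animals and link no young bull to an adult bull.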

Other observations

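The high values listed at 0 in other animals were largely, but not wholly, mitochondrial. Over the whole table, 8 genes exceeded 200 FPKM in some bull and were listed at 0 in another, and 5 of these were COX1, ATP8, ATP6, COX3 and CYTB. The highest FPKM of any gene outside the mitochondrial genome in any bull was 7847, below the level of ND3 in every bull.

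The age difference was compared between the lineages with an interaction term, for which the Domecq adult group held 2 bulls. The difference between the log2 fold changes (Santa Coloma-Albaserrada minus Domecq) was 1.93 for 12S rRNA (standard error 0.90) and 1.64 for 16S rRNA (standard error 0.93). Both had an adjusted p of 0.836 with limma, so no difference between the lineages was shown.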
